A study of Mus musculus with 12 samples.

Results

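Messenger RNA of 10 genes of the Toll-like receptor system was compared between the muscle of healthy and dystrophic mice. The genes were 8 receptors (Tlr1, Tlr2, Tlr3, Tlr4, Tlr6, Tlr7, Tlr8 and Tlr9), the adaptor Myd88 and the co-receptor Cd14. They were chosen by symbol from the count table, which has 24421 entries, and all 10 were found and passed the filter on low counts that left 13937 genes for testing. The tissue was the tibialis anterior, a fast hindlimb muscle, of 12 male mice aged 4 months. The WT group was 6 C57Bl/6 mice and the other group was 6 mdx/mTR mice, 1 library per mouse. The germline mdx mutation disrupts the dystrophin gene Dmd, and mTR stands for the telomerase RNA, whose gene is listed as Terc. The state of the mTR allele, its generation and whether any mice were littermates are not given in the sources used here. With no strain carrying mdx or mTR alone, the 2 alleles and the strain background cannot be told apart.

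Toll-like receptors are membrane proteins that recognise microbial molecules and some products of damaged cells through an ectodomain of leucine-rich repeats. Tlr1, Tlr2, Tlr4 and Tlr6 act at the cell surface on lipids and lipoproteins, whereas Tlr3, Tlr7, Tlr8 and Tlr9 act in endosomes on nucleic acids. Their cytosolic TIR domains recruit adaptors, Myd88 for all of these except Tlr3, and the signal ends in NF-kB and interferon regulatory factors. In muscle they are known from macrophages and other resident or recruited immune cells, with Tlr3 and Tlr4 also found in non-immune cells.

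Dmd, the gene disrupted by mdx, had usable counts. It ran from 228 to 244 CPM in WT mice and from 35.2 to 56.4 CPM in mdx/mTR mice. Every library thus matched its label for Dmd. CPM is the count scaled to a common library size. Terc had 2 counts over all 12 libraries, so the mTR allele was not checked. The libraries held 35136327 to 60330410 counts, and 3 counts, the limit that a count of 0 allows, were worth 0.0460 to 0.0837 CPM. The 8 defining markers of muscle fibres were abundant in all libraries, at a sum of 150391 to 168842 CPM in WT mice and 108312 to 144748 CPM in mdx/mTR mice. Over all genes tested, 3479 were higher in mdx/mTR and 3257 lower by edgeR's quasi-likelihood test at an adjusted p below 0.05, and the median log2 fold change was 0.01. With library totals alone in place of TMM scaling, the split was 5596 higher and 1560 lower and that median was 0.17.

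Of the 10 genes, 9 were higher in mdx/mTR and 0 lower, read against the 25.0% of all tested genes that were called higher and the 48.3% called in either direction. Tlr3, the receptor for duplex RNA, did not pass the test. At least 2-fold higher were 7 of the 10, compared with 7.24% of all tested genes. In 8 of the 10 the lowest mdx/mTR mouse lay above the highest WT mouse, a separation seen in 12.6% of tested genes in that direction and in 25.2% in either. The median log2 fold change of the 10 was 1.32, beside 0.01 over all genes tested. The count of 9 was the same without mdx/mTR replicate 5, and without both replicates 2 and 5. Tlr1 and Tlr9 passed the low-count filter only with the help of their mdx/mTR libraries, where they are high. With no such filter the count was also 9. In bulk tissue, fewer cells of a type and less RNA per cell cannot be told apart, nor can more cells and more RNA per cell, and this holds for every value that follows.

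**Figure D1:**
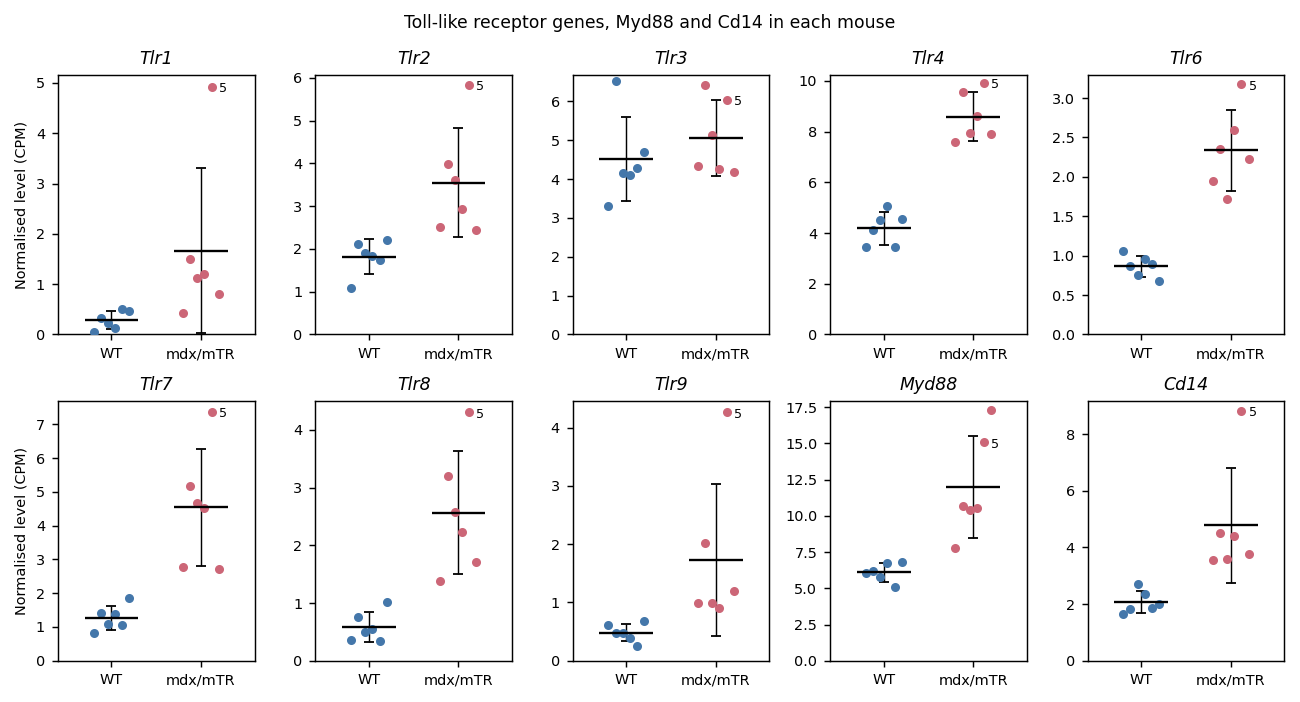
Normalised level (CPM, linear axis from 0) of each of the 10 genes in 6 WT and 6 mdx/mTR mice; each point is 1 mouse, lines are means, bars are SD, and "5" marks mdx/mTR replicate 5. The groups were apart for 8 genes and overlapped for Tlr1 and Tlr3, and replicate 5 was the highest mdx/mTR mouse for 8 of the 10.

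The levels were low for most of the receptors. Levels between genes are compared here per kilobase of the longest coding transcript, as CPM per kilobase (mean ± SD, n = 6). In WT the order began with Myd88 at 3.11 ± 0.329, followed by Cd14 at 1.26 ± 0.240, Tlr4 at 1.03 ± 0.159 and Tlr3 at 1.03 ± 0.247. Tlr2 stood at 0.604 ± 0.133, and below it came Tlr7 at 0.326, Tlr6 at 0.236, Tlr8 at 0.171, Tlr9 at 0.139 and Tlr1 at 0.0940. Neighbours in this order overlapped between mice except Myd88 with Cd14 and Tlr3 with Tlr2, and the second of these gaps closed when the union of all exons was used as the length. In mdx/mTR the order was Myd88 (6.10 ± 1.80), Cd14 (2.91 ± 1.23), Tlr4 (2.11 ± 0.235), Tlr2 (1.18 ± 0.423), Tlr7 (1.16 ± 0.443), Tlr3 (1.15 ± 0.221), Tlr8 (0.748), Tlr6 (0.635), Tlr1 (0.550) and Tlr9 (0.496). All neighbours in that order overlapped. Tlr3 and Tlr4 overlapped in WT, whereas in mdx/mTR the highest value of Tlr3 was 1.46 and the lowest of Tlr4 was 1.86.

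Among the surface receptors, Tlr2, which pairs with Tlr1 or Tlr6 to bind lipoproteins, had a lowest, median and highest level of 1.08, 1.87 and 2.22 CPM in WT. In mdx/mTR these were 2.44, 3.27 and 5.84 CPM. The groups did not overlap, and Tlr2 was 1.94-fold higher (log2 fold change 0.96 ± 0.23 SE, edgeR adjusted p = 0.0032). Tlr6, the partner for diacylated lipopeptides, ran from 0.684 through a median of 0.877 to 1.06 CPM in WT and from 1.72 through 2.29 to 3.17 CPM in mdx/mTR. It too was separate in every mouse, at 2.69-fold (1.43 ± 0.17, adjusted p = 1.8e-05). Tlr1, the partner for triacylated lipopeptides, was the least abundant in WT, at 0.0556, 0.279 and 0.496 CPM from 2 to 19 counts per library. In mdx/mTR it was at 0.436, 1.16 and 4.92 CPM. The lowest mdx/mTR mouse fell inside the WT range and replicate 5 stood far above the rest. Tlr1 was 5.76-fold higher over all mice (2.53 ± 0.59, adjusted p = 0.0033), and the log2 fold change without replicate 5 was 1.81 (adjusted p = 0.0033). Tlr1, like Tlr9, passed the low-count filter only with the help of its mdx/mTR libraries.

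Tlr1 and Tlr6 are neighbours on the minus strand of chromosome 5 (GRCm38, GENCODE M21), at chr5:64924679-64933563 and chr5:64952031-64960097. Of the 50-base stretches of the Tlr1 transcript 15.3% also occur in that of Tlr6, and 12.6% of those of Tlr6 occur elsewhere, so short reads there could be given to either gene or to none. How such reads were counted is not given in the sources used here. The longest coding run that the 2 genes share letter for letter, shown because reads inside it cannot separate them, is 229 bases at chr5:64925537-64925765 in Tlr1 (coding bases 1468 to 1696) and chr5:64953828-64954056 in Tlr6 (coding bases 1507 to 1735), both minus strand.
Tlr1 and Tlr6 shared coding run: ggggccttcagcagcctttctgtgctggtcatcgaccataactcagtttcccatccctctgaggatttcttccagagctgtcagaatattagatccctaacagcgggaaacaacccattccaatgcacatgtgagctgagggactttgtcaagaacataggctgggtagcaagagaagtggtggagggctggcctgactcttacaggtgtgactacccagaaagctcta
The ratio of Tlr1 to Tlr6 counts was 0.352 ± 0.241 in WT mice and 0.648 ± 0.471 in mdx/mTR mice (SD, n = 6), with overlapping groups. That ratio ran from 0.0526 to 0.680 in WT, so the 2 genes did not keep a fixed proportion between mice.

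Tlr4, the receptor for lipopolysaccharide, showed the smallest spread of the 9 raised genes in mdx/mTR, with a coefficient of variation of 11.2%. It ran from 3.45 through a median of 4.31 to 5.07 CPM in WT and from 7.58 through 8.29 to 9.93 CPM in mdx/mTR. The gap between the groups was wide relative to the spread of either, and Tlr4 was 2.05-fold higher (1.04 ± 0.11, adjusted p = 8.6e-06). Cd14, which hands lipopolysaccharide to Tlr4, was at 1.67, 1.93 and 2.72 CPM in WT and at 3.56, 4.08 and 8.82 CPM in mdx/mTR (lowest, median and highest). The groups were apart, and Cd14 was 2.30-fold higher (1.20 ± 0.22, adjusted p = 0.00069). Replicate 5 was at 8.82 CPM and the other 5 mdx/mTR mice at 3.56 to 4.51 CPM, and without it the log2 fold change was 0.93 (adjusted p = 1.0e-04). The ratio of Cd14 to Tlr4 counts was 0.496 ± 0.0638 in WT and 0.545 ± 0.169 in mdx/mTR, with overlapping groups.

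Of the endosomal receptors, Tlr7, a sensor of uridine-rich RNA, was at 0.833, 1.23 and 1.86 CPM in WT (lowest, median and highest) and at 2.72, 4.60 and 7.37 CPM in mdx/mTR. The groups did not overlap, and Tlr7 was 3.56-fold higher (1.83 ± 0.26, adjusted p = 8.1e-05). Tlr8, its neighbour and close relative on the X chromosome, was at 0.340, 0.528 and 1.01 CPM in WT and at 1.38, 2.40 and 4.30 CPM in mdx/mTR. It was 4.35-fold higher with separate groups (2.12 ± 0.32, adjusted p = 0.00013). The ratio of Tlr7 to Tlr8 counts was 2.29 ± 0.455 in WT and 1.80 ± 0.190 in mdx/mTR, overlapping between groups. Both lie on the minus strand (GRCm38), Tlr8 at chrX:167242696-167264329 and Tlr7 at chrX:167304929-167330558. Neither shares a 50-base stretch with another gene.

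Tlr9, the receptor for unmethylated CpG DNA, was at 0.261, 0.473 and 0.684 CPM in WT and at 0.899, 1.09 and 4.26 CPM in mdx/mTR. The groups were apart, but replicate 5 was at 4.26 CPM and the other 5 mdx/mTR mice at 0.899 to 2.03 CPM. Tlr9 was 3.56-fold higher (1.83 ± 0.41, adjusted p = 0.0024), with a log2 fold change of 1.34 without replicate 5 (adjusted p = 0.0014). Tlr3 was the exception among the 10. It was at 3.31, 4.22 and 6.53 CPM in WT and at 4.19, 4.74 and 6.42 CPM in mdx/mTR, with the highest value of all in a WT mouse. Its mean was 4.52 ± 1.09 CPM in the WT group and 5.06 ± 0.975 in the mdx/mTR group (SD, n = 6), a log2 difference of 0.17 ± 0.16 that did not pass the test (adjusted p = 0.42). The value was -0.02 without mdx/mTR replicates 2 and 5 and 0.33 with library totals alone. Tlr3 also overlaps an antisense gene, Gm45542, over 381 exon bases (7.32%), whose reads cannot be told apart without strand.

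The ratio of Tlr3 to Tlr7 counts showed the contrast between the 2 RNA sensors in each mouse. It was 3.67 ± 0.765 in WT, from 2.53 to 4.59, and 1.20 ± 0.308 in mdx/mTR, from 0.821 to 1.57. No mdx/mTR mouse reached the lowest WT mouse. Unlike the other 7 receptors, Tlr3 does not signal through Myd88. Its adaptor is Ticam1, to which Tlr4 is also linked. The part of the adaptors in this contrast was not tested.

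Myd88, the adaptor shared by most of the receptors and by the interleukin-1 receptor family, was at 5.07, 6.13 and 6.81 CPM in WT and at 7.77, 10.6 and 17.3 CPM in mdx/mTR. The groups did not overlap, and the highest mouse was replicate 6 and not replicate 5. Myd88 was 1.96-fold higher (0.97 ± 0.17, adjusted p = 0.00036). Its gene (chr9:119335934-119341411, minus strand) overlaps Acaa1a, a peroxisomal thiolase gene on the opposite strand, over 290 exon bases (11.3%). Acaa1a averaged 32.2 CPM in WT mice and 34.8 CPM in mdx/mTR mice (log2 fold change 0.11, adjusted p = 0.042); its part in the Myd88 value was not tested.

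**Figure D2:**
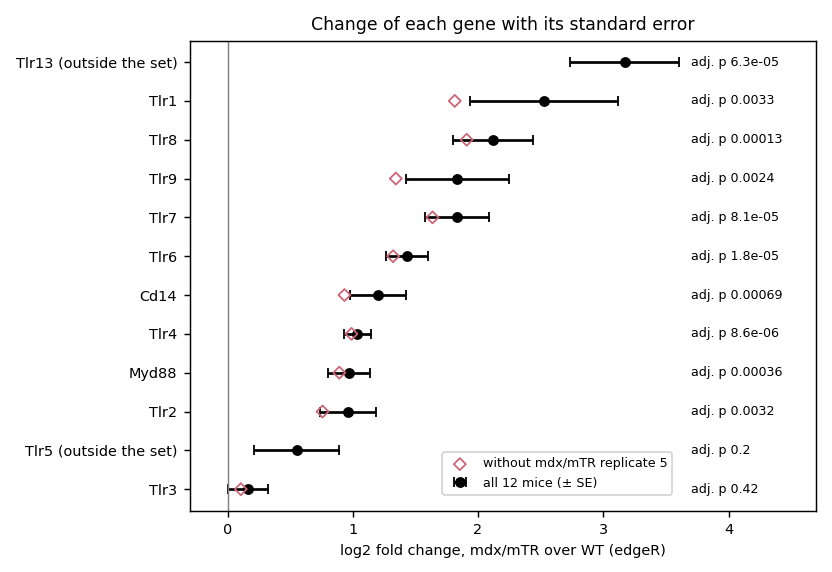
The log2 fold change between mdx/mTR and WT mice by edgeR (positive where mdx/mTR was higher), with bars of 1 standard error, for the 10 genes and for Tlr5 and Tlr13; diamonds give the 10 genes without mdx/mTR replicate 5. Tlr1 moved farthest, from 2.53 to 1.81, and Tlr3 stayed near 0 at 0.17 and 0.11.

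The promoters of 7 of the 10 genes were read from RefSeq (GRCm38.p6) and searched over the 250 bases before each start site for 4 motifs on both strands, because the genes moved largely together. The motifs were an NF-kB motif (GGGA, any base, TT, any base, CC), an interferon-stimulated response element (GAAA, any 2 bases, GAAA), a PU.1 core (GAGGAA) and an AP-1 motif (TGANTCA). PU.1 is a lineage factor of myeloid cells. The stretches below are 30 bases each, 5′ to 3′ on the strand of the gene, and capitals mark the match. The NF-kB motif was in the promoters of Tlr2 (chr3:83841761-83841790, minus strand) and Tlr3 (chr8:45410572-45410601, minus strand), and in 0.980% of 32851 promoters.
Tlr2: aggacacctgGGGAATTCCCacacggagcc
Tlr3: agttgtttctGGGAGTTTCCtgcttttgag
The response element was in Myd88 (chr9:119340039-119340068, minus strand) and, on the other strand, in Tlr6 (chr5:64959263-64959292, minus strand), where a second match overlaps the first. It was in 2.98% of all promoters.
Myd88: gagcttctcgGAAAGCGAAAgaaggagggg
Tlr6: tgactattctTTTCTCTTTCactttctgtt
The PU.1 core, a common motif found in 23.3% of promoters, was in Tlr1 (chr5:64933564-64933593, minus strand), Tlr8 (chrX:167264389-167264418, minus strand) and Tlr9 (chr9:106222474-106222503, plus strand).
Tlr1: aattaaatgttgGAGGAAgtaggagcttga
Tlr8: tataaatgacttTTCCTCtgaattcagttt
Tlr9: ggagagtggaaaGAGGAAggggttgagggg
The AP-1 motif was in Tlr9 (chr9:106222528-106222557, plus strand) and in 6.75% of promoters.
Tlr9: gcaaatgatgtgTGACTCAttgtaccacct
All 30 bases of the Tlr3 stretch lie in an exon of the GENCODE M21 models, upstream of the RefSeq start. Of the Tlr2 stretch 7 bases lie in such an exon, and of the Myd88 stretch 3. The Myd88 and Tlr6 stretches fall inside the GENCODE spans of their genes. Tlr1 and Tlr6 each had another promoter among the 9 read, and it held none of the motifs. Tlr4, Tlr7 and Cd14 were not searched. A match is a string of letters and was not measured as a binding site here.

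The rest of the receptor family gave a wider frame. Tlr13, an endosomal sensor of bacterial ribosomal RNA, was at 0.361, 0.733 and 1.01 CPM in WT and at 2.81, 5.68 and 16.2 CPM in mdx/mTR (lowest, median and highest). Its groups were apart and it was 9.01-fold higher (3.17 ± 0.43, adjusted p = 6.3e-05). Tlr5, the flagellin receptor, was not called (0.55 ± 0.34, adjusted p = 0.20). Tlr11 and Tlr12 were too low to test, at means of 0.223 and 0.0275 CPM in WT mice, and of 0.309 and 0.267 CPM in mdx/mTR mice. Summed per kilobase over the 12 receptor genes, the level was 4.44 ± 0.673 in WT and 10.7 ± 4.08 in mdx/mTR, with no overlap.

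Within that sum, the share of Tlr3 was 23.0% ± 3.49 in WT and 11.4% ± 2.10 in mdx/mTR, from 20.04% to 29.7% and from 7.66% to 13.8%. The share of Tlr13 was 4.01% ± 0.806 and 14.1% ± 4.77. These were the 2 of the 12 receptors whose shares did not overlap between the groups; shares sum to 100%, so they are not independent. Tlr4 had 23.3% and 21.2%, and Tlr2 13.5% and 11.1%. Tlr7 had 7.24% and 10.9%, and Tlr8 3.75% and 6.91%, all 4 with overlapping groups. For Tlr7 and Tlr8 the overlap was small. The highest WT mouse and the lowest mdx/mTR mouse were at 9.263% and 9.252% for Tlr7. For Tlr8 they were at 5.72% and 5.63%. In WT, Tlr4, Tlr3 and Tlr2 held the highest mean shares, and in mdx/mTR Tlr4, Tlr13 and Tlr3 did.

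**Figure D3:**
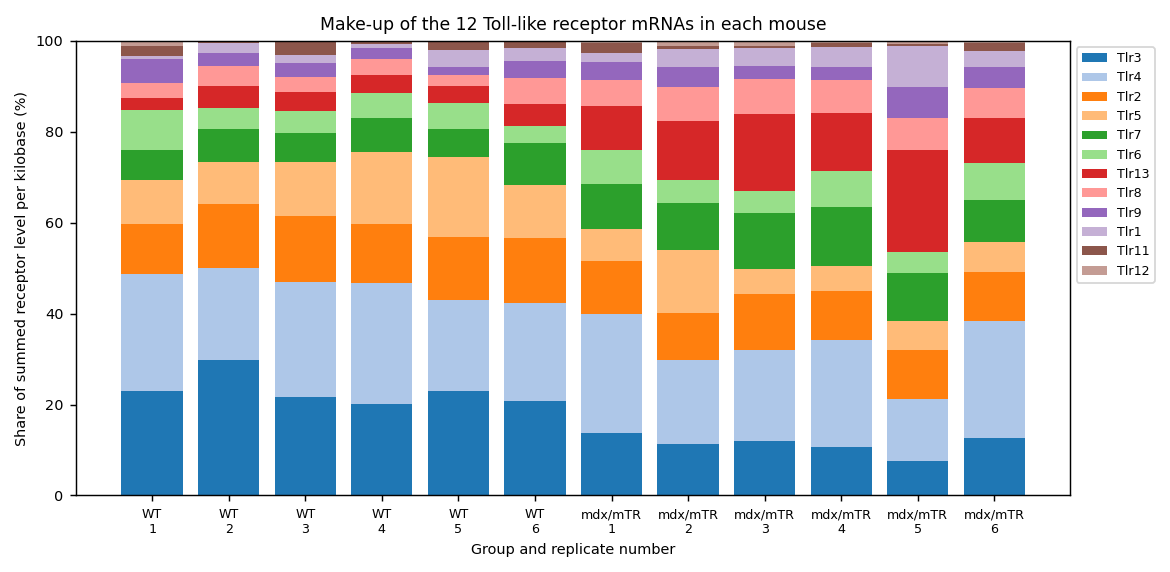
Share of each of 12 Toll-like receptor genes in their summed level per kilobase (%), 1 bar per mouse by group and replicate number. Tlr3, at the foot of the bars, held 20.04% to 29.7% in WT and 7.66% to 13.8% in mdx/mTR, and Tlr13 held 4.01% and 14.1% on average.

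Marker genes of several cell types moved beside the receptor genes, in both directions. Of 10 macrophage markers 8 were higher and 0 lower, and their summed level was 76.3 to 126 CPM in WT and 172 to 413 CPM in mdx/mTR, highest in replicate 5, with none at 0. Of 4 monocyte markers 2 were tested, and both were higher. Of 10 neutrophil markers 3 were tested and 2 were higher, at a summed level of 0.695 to 2.66 CPM in WT and 2.0 to 20.1 CPM in mdx/mTR. Of 6 T cell markers the 1 tested, Cd4, was higher (sums 0.222 to 0.810 and 1.80 to 4.09 CPM). Of 6 dendritic cell markers 4 were higher (sums 8.37 to 10.97 and 9.41 to 13.4 CPM), of 5 mast cell markers all 5 (8.64 to 15.6 and 20.1 to 27.0 CPM), and of 6 markers of fibro-adipogenic progenitors 4 (477 to 602 and 710 to 839 CPM). The 2 tested of 6 B cell markers and 4 plasmacytoid dendritic cell markers, cells known for Tlr7 and Tlr9, gave 0 calls. Of 6 endothelial markers 4 were lower (474 to 631 and 377 to 495 CPM), and of 8 muscle fibre markers 3 were lower and 0 higher (150391 to 168842 and 108312 to 144748 CPM, with no overlap). Of 5 Schwann cell markers 4 were lower, and of 5 satellite cell markers 2 were higher and 1 lower. Beside these counts, 25.0% of all tested genes were higher and 23.4% lower. The part of these cell types in the receptor values was not tested.

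Each gene was also expressed as a percentage of the summed macrophage markers of the same mouse. That sum was itself higher in mdx/mTR, at a ratio of group means of 2.64, so a gene that changed little is lower on this scale. Tlr3 was 4.52% ± 1.06 of that sum in WT and 1.98% ± 0.370 in mdx/mTR, and the groups did not overlap. The other 9 genes overlapped between the groups on this scale. Tlr4 was 4.16% ± 0.327 and 3.41% ± 0.749, Tlr2 1.79% ± 0.257 and 1.32% ± 0.0989, and Cd14 2.07% ± 0.346 and 1.79% ± 0.332. Tlr7 was 1.24% ± 0.173 and 1.67% ± 0.175, and Tlr8 0.564% ± 0.166 and 0.936% ± 0.107. Myd88 was 6.13% ± 0.910 and 4.76% ± 2.0. For Tlr8 the overlap was small, with a highest WT mouse at 0.806% and a lowest mdx/mTR mouse at 0.801%. Set against the sum of the endothelial markers, which was itself lower on average in mdx/mTR, all 10 genes were higher with no overlap, Tlr3 included at 0.864% ± 0.118 and 1.20% ± 0.123. Set against the sum of the fibro-adipogenic progenitor markers, Tlr4 was 0.769% ± 0.0724 and 1.08% ± 0.0897 with no overlap, and Tlr7 and Tlr8 were also apart. The share of Tlr3 in that sum was 0.829% ± 0.170 and 0.634% ± 0.0987, with overlap.

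**Figure D4:**
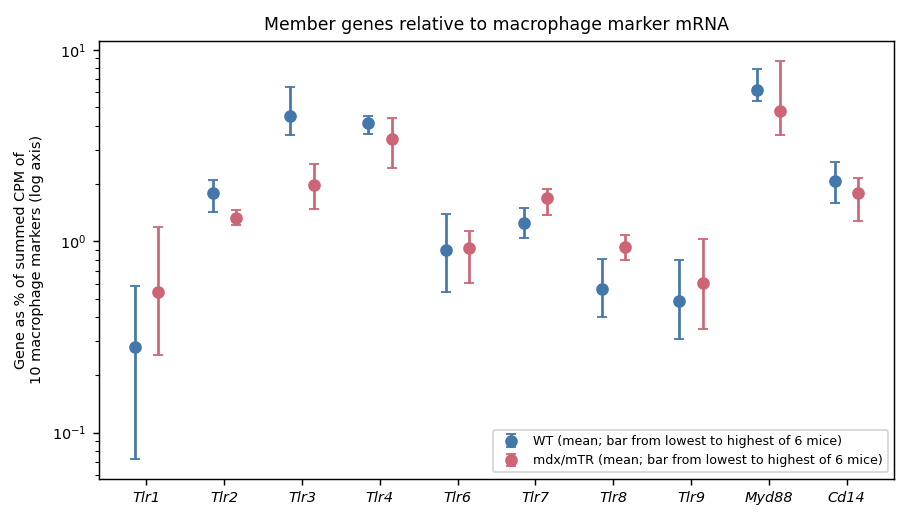
Each gene as a percentage of the summed CPM of 10 macrophage markers (log axis), as the mean of 6 mice with a bar from the lowest to the highest mouse. Tlr3 was the 1 gene whose groups did not overlap, at 4.52% in WT and 1.98% in mdx/mTR. The marker sum was itself higher in mdx/mTR, so a gene that changed little is lower on this scale.

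The genes with the most similar pattern over the 12 mice were found as the smallest root mean square difference of log2 values, each centred on its own mean, among 12206 genes of at least 1 CPM. Tlr7 and Tlr8 were each nearest to the other, at 0.108 log2 units. Next to Tlr7 came Csf1r (0.138), the receptor for the macrophage growth factor, and next to Tlr8 came Unc93b1 (0.128), the chaperone that carries endosomal receptors from the endoplasmic reticulum. Tlr4 was nearest to Pdgfra (0.0649), the defining receptor of fibro-adipogenic progenitors, which was at 26.7 to 36.3 CPM in WT and 54.5 to 74.8 CPM in mdx/mTR. Tlr1 was nearest to Fgr (0.172), a kinase of myeloid cells. Tlr2 was nearest to Tmem164 (0.0904), Tlr6 to Id2 (0.122) and Tlr9 to Peg10 (0.188). Myd88 was nearest to Tuba1c (0.153) and Cd14 to Dok1 (0.135). Tlr3 was nearest to Pdlim1 (0.104), a gene of the actin cytoskeleton that was not called (adjusted p = 0.11). The 2 members farthest from each other were Tlr1 and Tlr3, at 0.737. A pattern over 12 mice in 2 groups rests mainly on the group difference, so these distances describe these libraries. The 0.5 CPM added before the logarithm also shrinks the changes of genes at low levels. Csf1r had a log2 fold change of 1.32 beside 1.83 for Tlr7, and Unc93b1 1.39 beside 2.12 for Tlr8.

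The other genes of the pathway were read from the same fit, in which 25.0% of all tested genes were higher and 23.4% lower. Among 7 co-receptors and accessory proteins 5, with Cd14 among them, were higher and 1 lower, with a median log2 fold change of 0.56. Ly86, the partner of the receptor-like Cd180, was 4.48-fold higher (2.16 ± 0.33, adjusted p = 0.00016). Cd36, a fatty acid transporter that also assists Tlr2 with Tlr6, went the other way, from 479 to 645 CPM in WT to 275 to 389 CPM in mdx/mTR (-0.81 ± 0.09, adjusted p = 1.2e-05). Ly96, the subunit of Tlr4 that holds lipopolysaccharide, was not called (0.50 ± 0.34, adjusted p = 0.24), and its ratio to Tlr4 overlapped between groups. Of 5 adaptors, 3 were higher and 0 lower (median 0.65). These were Myd88, Ticam2 (1.65 ± 0.31, adjusted p = 0.00072), which links Tlr4 to Ticam1, and Ticam1 itself (0.59 ± 0.12, adjusted p = 0.0012), the adaptor of Tlr3. Tirap, which bridges Tlr2 and Tlr4 to Myd88, was at 0.03 ± 0.11 (adjusted p = 0.84).

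Genes for trafficking and processing of endosomal receptors were higher in 8 of 10 cases and lower in 0, with a median of 0.49. Over all tested genes the shares were 25.0% and 23.4%. Of the 4 endosomal proteases in the list, Ctss and Lgmn differed most, and Ctsb (0.58) and Ctsl (0.38) less than Unc93b1. Ctss, the gene of cathepsin S, was 8.05-fold higher (3.01 ± 0.31, adjusted p = 6.7e-06), and Lgmn, that of legumain, 2.87-fold (1.52 ± 0.16, adjusted p = 7.7e-06). Unc93b1 was 2.62-fold higher (1.39 ± 0.21, adjusted p = 0.00014). Hsp90b1, the folding chaperone of most receptors, was not called (0.05, adjusted p = 0.63).

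Downstream of Myd88 the picture was mixed. Of 18 kinases and ubiquitin ligases 6 were higher and 4 lower, with a median of 0.05, close to the 0.01 of all genes and near the 25.0% and 23.4% called in each direction. Irak4, the first kinase bound by Myd88, was 1.64-fold higher (0.71 ± 0.13, adjusted p = 0.00053). Tab2, which couples the ubiquitin chains made by Traf6 to the kinase Map3k7, was lower (-0.59 ± 0.08, adjusted p = 6.6e-05). Map3k7 was at -0.28 (adjusted p = 0.0011), Chuk at -0.29 (adjusted p = 0.00064) and Traf6 at -0.19 (adjusted p = 0.011). With library totals alone, Traf6 (-0.03) and Chuk (-0.14) were no longer called and 2 of the 18 were lower. Of 10 transcription factors 5 were higher and 0 lower (median 0.20), and the smallest p-values were those of Nfkb2 (0.85 ± 0.10, adjusted p = 2.2e-05) and Irf3 (0.20 ± 0.05, adjusted p = 0.0040). The count of 5 ran from 2 to 7 over 23 alternatives. Among these, it was 3 when mdx/mTR replicate 5, or WT replicate 1, 2, 3 or 5, was left out. It was 2 without mdx/mTR replicates 2 and 5. The count of 0 lower was 1, for Irf5, without WT replicate 1, without mdx/mTR replicates 2 and 5, by limma-voom with sample weights and with the replicate number as a block. Of 11 negative regulators 4 were higher and 1 lower (median 0.15), beside 25.0% and 23.4% of all tested genes, among them Tnip2 (0.85 ± 0.15, adjusted p = 0.00041) and Socs1 (0.94 ± 0.26, adjusted p = 0.0095). Sigirr, an inhibitory receptor, was lower (-0.32 ± 0.10, adjusted p = 0.020), and was not called with library totals alone, where 7 of the 11 were higher and 0 lower.

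Of 16 cytokine and enzyme genes that the pathway induces, 9 had enough counts to test, and 3 were higher and 1 lower, a share near the 25.0% of all tested genes called higher. Ccl2, a monocyte attractant, was at 0.222, 0.488 and 1.26 CPM in WT and at 0.959, 2.69 and 16.2 CPM in mdx/mTR, the highest value again in replicate 5 (2.94 ± 0.68, adjusted p = 0.0029). Without that mouse the log2 fold change of Ccl2 was 1.90 (adjusted p = 0.0015). Ccl2 had 8 to 46 counts per WT library and passed the low-count filter only with the help of its mdx/mTR libraries. Ccl5 was 4.06-fold higher (2.02 ± 0.35, adjusted p = 0.00038), from 1 to 11 counts per WT library, and Cxcl10 was also higher (1.96 ± 0.48, adjusted p = 0.0043). Il12a was lower (-0.54 ± 0.16, adjusted p = 0.013), a call lost without mdx/mTR replicates 2 and 5 (-0.37, adjusted p = 0.051). Tnf (1.23 ± 0.54, adjusted p = 0.076) and Il1b (1.06 ± 0.52, adjusted p = 0.11) were not called, and Il6, Il12b, Il10, Ccl3, Ccl4, Cxcl2 and Ifnb1 were too low to test. The median of the 9 was 1.06, and 0.31 without replicate 5.

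Of 9 proteins proposed as endogenous ligands of the receptors, 5 were higher and 1 lower at the mRNA level (median 1.23, and 0.88 without replicate 5). For this list and the next 2, the shares over all tested genes were 25.0% higher and 23.4% lower. Those that rose included the matrix genes Bgn (biglycan, 1.23 ± 0.25, adjusted p = 0.0011), Vcan (versican, 1.58 ± 0.33, adjusted p = 0.0016) and Tnc (tenascin C, 1.95 ± 0.56, adjusted p = 0.011), all 3 proposed for Tlr2 or Tlr4. Hspd1, a mitochondrial chaperone, was lower (-0.55 ± 0.05, adjusted p = 1.3e-06), and Hmgb1 was not called (-0.14 ± 0.07, adjusted p = 0.12). Of 6 receptors of the interleukin-1 family, which share Myd88, 4 were higher and 0 lower (median 0.79), including Il18rap (1.81 ± 0.34, adjusted p = 0.00069) and Il1r1 (0.51 ± 0.11, adjusted p = 0.0013). Among 14 tested sensors of other innate families 7 were higher and 0 lower (median 0.99, and 0.53 without replicate 5, with 5 then higher). The fungal lectin receptors Clec7a (2.60 ± 0.43, adjusted p = 0.00028) and Clec4n (2.41 ± 0.32, adjusted p = 5.3e-05) led that list, and the RNA sensors Ddx58 (0.24 ± 0.15, adjusted p = 0.21) and Ifih1 (0.12 ± 0.13, adjusted p = 0.46), which like Tlr3 detect duplex RNA, were not called.

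**Figure D5:**
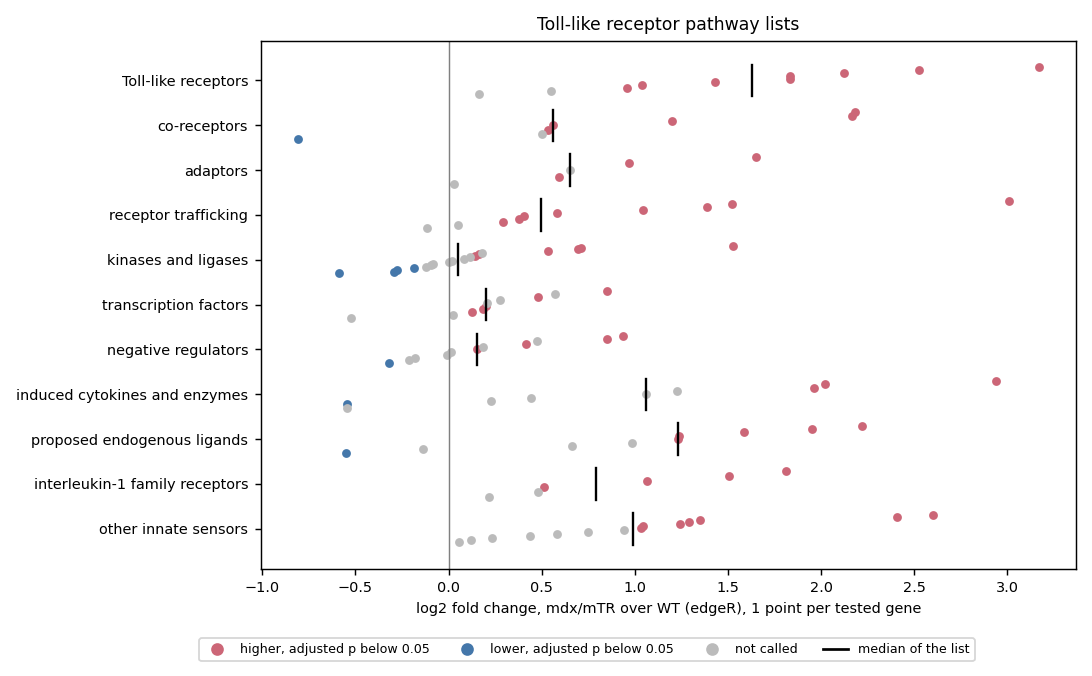
The log2 fold change by edgeR, positive where mdx/mTR was higher, for each tested gene of 11 pathway lists, coloured by call, with a line at the median of each list. The median ran from 0.05 for kinases and ligases to 1.63 for the 10 tested Toll-like receptors. The lists of Toll-like receptors, adaptors, trafficking genes, transcription factors, interleukin-1 family receptors and other sensors held 0 genes called lower, beside 23.4% of all tested genes.

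The authors' deposited table gave the same calls for the 10 genes at an adjusted p below 0.05, 9 called and Tlr3 not (log2 fold change 0.15, adjusted p = 0.45 in the authors' deposited table). In the authors' deposited table the log2 fold change was 1.44 for Tlr1, 1.80 for Tlr8, 1.63 for Tlr7 and 1.42 for Tlr9, each smaller than the edgeR value. For Tlr4 it was 1.0 in the authors' deposited table, beside 1.04 by edgeR. Tlr1 differed most between the sources, at 1.44 and 2.53.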

How the data were processed

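Messenger RNA of tibialis anterior muscle was sequenced in 6 WT and 6 mdx/mTR mice. Per the labels' protocols, RNA came from a column kit and libraries followed standard Illumina steps; the submitters' processing notes name mm10, FastQC, STAR and DESeq2. The counting tool, annotation and strand handling are not given in the sources used here. The authors deposited whole-number counts per gene symbol, and 0 per-sample columns were unmatched. In the authors' deposited table of their own test stand, per the file headers, a mean normalised signal, log2 fold changes with standard errors, a test score and p-values.

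The unaltered counts went into edgeR 4.0.16 (R 4.3.3): filterByExpr (13937 genes, 99.97% of counts), TMM scaling, a quasi-likelihood model with group as its term, and Benjamini-Hochberg adjustment over all genes tested with a threshold of 0.05. Tlr1, Tlr9, Ccl2, Ccl5, Il18rap and Fgr were among the genes that passed filterByExpr only with the help of their mdx/mTR libraries. Each adjusted p printed is from this edgeR fit unless named otherwise. The standard error is the log2 fold change over the square root of F. CPM uses TMM-scaled library sizes; the floor of 3 counts covers counting error only. The replicates are taken as separate mice, and p-values weigh the group difference against the spread between them. Replicate pairs differed by more than sampling noise (chi-square per degree of freedom 9.14 to 128). The procedure was tested on simulated counts of the 13937 genes: edgeR recovered 90% of 100 genes changed by 1 log2 unit and 93% of 100 changed by 2, with 12 false calls.

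Members, pathway lists, markers and tests were chosen with earlier results of these data known. The text names all members, the 2 smallest p-values of each of 11 lists, genes against the direction of their list and the 2 nearest patterns of each member (log2(CPM + 0.5)), of which 1 or 2 are printed. An item is not reported here. Other genes were chosen after their values were seen. Gene models came from GENCODE M21 (GRCm38), promoters from RefSeq (GRCm38.p6). Shared sequence was counted as 50-base stretches. Alternatives were other filters, scalings, DESeq2 1.42.0, limma-voom (limma 3.58.1) plain or weighted by sample, the replicate number as a block, leaving out each mouse, a stricter threshold and a minimum fold. Leaving out both mdx/mTR replicates 2 and 5, and thinning counts to the smallest library total, were chosen after seeing the data.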

Additional observations from a re-analysis of the deposited data

Results flagged for a closer look

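In groups of 6 mice, a mouse was singled out where its gap to the next mouse, as a share of the range of the group, exceeded Dixon's 95% limit. Of 110 groups, 18 were singled out where chance gives about 5.5, since about 1 in 20 groups is flagged by chance; 14 of the 18 were mdx/mTR replicate 5, and 3 concerned the 10 genes. These 3 were Tlr1 at 4.92 CPM, with the other mdx/mTR mice at 0.436 to 1.504, Tlr9 at 4.26 CPM, with the others at 0.899 to 2.03, and Cd14 at 8.82 CPM, with the others at 3.56 to 4.51. Without that mouse the means of the mdx/mTR group were 1.014 CPM for Tlr1, 1.22 CPM for Tlr9 and 3.97 CPM for Cd14, and all 3 genes were still called higher.

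The same mouse stood above the rest of its group for the sensors Tlr13 (16.2 CPM), Clec4n (4.67 CPM) and Clec7a (20.8 CPM), for the chemokine gene Ccl2 (16.2 CPM) and for the receptor gene Il18rap (1.51 CPM). It also did so for 6 of the genes with patterns nearest to a member, namely Fgr (6.92 CPM), Ubash3b (7.50 CPM), Ccdc109b (3.71 CPM), Peg10 (9.65 CPM), Gatm (28.2 CPM) and Dok1 (6.90 CPM). Those genes were selected for following the members over the same 12 mice, so they are not independent of them. The summed macrophage markers were also highest in that mouse, at 413 CPM.

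The other 4 were Traf6 in mdx/mTR replicate 3, the lowest of its group at 27.1 CPM, Map3k7 in WT replicate 2, the lowest at 107 CPM, Tmem164 in WT replicate 1, the lowest at 3.36 CPM, and Enpp1 in WT replicate 2, the highest at 8.65 CPM.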

How the results depend on the processing

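Single genes were scored in 23 alternatives. There the 9 genes called higher kept their call and direction in all 205 fits in which they were tested. The highest adjusted p was 0.015 (Tlr1 by limma-voom). With at least 1 CPM required in 6 libraries, Tlr1 and Tlr9 were not tested and 7 were called. Tlr3 was not called in any of the 23. The stricter threshold and the minimum fold were scored over all genes only, so these 205 fits do not cover them. With both mdx/mTR replicates 2 and 5 left out the log2 fold change turned negative for Tlr3 (-0.018), Tlr5 (-0.15) and Enpp1 (-0.0497), none of them called; the cause was not tested. Leaving out 1 mouse at a time gave 6125 to 6816 genes called. A minimum log2 fold change of 0.5 gave 1368 called genes (1012 higher, 356 lower), by construction. Library totals alone gave 5596 higher and 1560 lower; the cause was not tested.

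The deviations of same-numbered mice from their group means correlated at -0.14 to 0.32, with 2 of 6 above 0.1. Of the 6 WT mice, 2 correlated best with their own number. Whether the numbers pair mice is not given, and these correlations cannot settle it. A fit with the replicate number as a block called 6420 genes, 6197 of them shared with the 6736 of the unblocked fit, and left the calls of the 10 genes as they were. Tlr1 had 2 to 19 counts per WT library, which limits the precision of its fold change.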
